A study of Mus musculus with 25 samples.

Results

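The transcriptional regulators of mitochondrial biogenesis were followed in gastrocnemius, a hindlimb muscle, of male SAMP8 mice, a senescence-prone strain. The set comprised the coactivators Ppargc1a and Ppargc1b, the nuclear receptors Ppara, Ppard, Esrra, Esrrb and Esrrg, the nuclear factor Nrf1, the mitochondrial DNA-binding protein Tfam and the muscle regulator Perm1, and 9 of these 10 genes were among the 8829 gene symbols of the expression table. The expression of Esrrb was not analysed here. Control mice received vehicle (n = 11) and thymol mice received the plant terpenoid thymol at 20 mg/kg body weight per day (n = 14), in both groups for 3 months from 8 months of age, with 1 library per mouse. No allele or transgene distinguished the groups, and mice are named by group and by the last number of their label. Between 4463818 and 9463418 reads per library could be recovered from the deposited values (median 7503259). Of these reads, the 7 of 13 mitochondrial genome mRNAs that are in the table took 22% to 33.9%.

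Mitochondrial biogenesis needs proteins from both the nuclear and the mitochondrial genome. Ppargc1a and Ppargc1b encode PGC-1α and PGC-1β, which do not bind DNA themselves but join nuclear receptors and NRF1 at their target genes. The estrogen-related receptors (Esrra, Esrrg) bind near genes of the respiratory chain and citric acid cycle, the PPAR receptors (Ppara, Ppard) act on genes of fatty acid use, and NRF1 acts on nuclear respiratory genes and on Tfam. TFAM packages mitochondrial DNA and starts its transcription, and PERM1 is a protein of heart and skeletal muscle that acts together with PGC-1α and the estrogen-related receptors. In working muscle this network is known for setting oxidative capacity after endurance activity.

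On GRCm38, with the GENCODE M21 annotation, Ppargc1a lies at chr5:51454250-51567726 on the minus strand and Ppara is at chr15:85734983-85802819 on the plus strand. Ppard is at chr17:28232700-28301474, also on the plus strand. Esrrg spans chr1:187608791-188214885 on the plus strand. Esrra occupies chr19:6910977-6921813 on the minus strand, and its 3′ end overlaps that of the methyltransferase activator gene Trmt112 (chr19:6909698-6911049, plus strand), a gene that also had values in the table. Trmt112 ranged from 4.62 to 5.14 log2 CPM, and its r with Esrra over 25 mice was -0.01. Nrf1 is at chr6:30047988-30153458 on the plus strand, Tfam at chr10:71225464-71238280 on the minus strand and Perm1 at chr4:156215868-156221307 on the plus strand.

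The promoter windows of RefSeq (GRCm38.p6, 250 bases before to 50 bases after each start) were searched on both strands for exact short motifs of 4 factors of this network, and the 4 stretches below are shown because they place the motif of a regulator, or of its partner GABPA, in a regulator or in a respiratory chain gene. Capitals mark the motif, each stretch is written 5′ to 3′ along the gene, and the 3 genes that lie on the minus strand are Tfam, Atp5g3 and Sdhd.
Ppara, NRF1 motif, chr15:85735735-85735763: gggctcggtgGCGCATGCGcgcggactag
Tfam, GABPA motif, chr10:71238074-71238101: ctgccgcggaCCGGAAGTccgggcttcc
Atp5g3, estrogen-related receptor motif, chr2:73911360-73911388: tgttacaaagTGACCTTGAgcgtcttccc
Sdhd, estrogen-related receptor motif, chr9:50603800-50603823: ggttgtagagTGACCTTGAgccct
The NRF1 motif (GCGCATGCG) lay 31 to 23 bases before the start of Ppara, where it also matches the other strand shifted by 1 base. The 9 of 10 regulators with a window included Esrrb, and the promoter of Ppargc1b was not analysed here. The NRF1 motif was found in 1 of these 9 and in 8 of 65 nuclear chain genes with a window (12.3%), against 4.57% of the 7085 table genes with a window. The estrogen-related receptor motif (TCAAGGTCA, read here on the opposite strand) was present in none of these 9 regulators and in 2 of the 65 chain genes (3.08%), against 0.226% of table genes. These were Atp5g3, a ring subunit gene of ATP synthase named Atp5mc3 in the expression table, and Sdhd, a membrane anchor of complex II. The GABPA motif (CCGGAAGT), 47 to 40 bases before the start of Tfam, occurred in 7.69% of chain genes and in 9.94% of table genes. The YY1 motif (AAGATGGC) was in none of the 9, in 15.4% of chain genes and in 5.91% of table genes. A match of letters describes the window and is not evidence of binding.

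QuantSeq counts the 3′ ends of polyadenylated transcripts, 1 read per fragment, so that counts do not grow with transcript length and levels in log2 CPM (read counts scaled to library size, on a log2 scale, as deposited) can be set beside each other. In control mice the order of the medians was Perm1 (7.56 log2 CPM), Ppargc1a (5.90), Ppargc1b (5.05), Esrra (4.92), Tfam (4.73), Ppard (4.03), Ppara (3.52), Nrf1 (3.32) and Esrrg (2.60). The lowest control mouse for Perm1, 6.79, was above the highest for Ppargc1a, 6.28. Ppargc1b, Esrra and Tfam had overlapping ranges, as had Ppard and Ppara, Ppara and Nrf1, and Nrf1 and Esrrg, so those neighbours were not separated beyond their spread. The regulators varied by different amounts between mice. The SD over all 25 mice was smallest for Tfam (0.17 log2 CPM) and Nrf1 (0.20) and largest for Esrrg (0.53) and Ppara (0.57).

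The depth behind these values differed strongly between genes. Perm1 had 815 to 2100 reads per mouse and Ppargc1a 259 to 648, whereas Esrrg had 18 to 100 and Nrf1 39 to 100 in control mice. Counting error alone accounted for 1.31% of the within-group variance of Perm1, 6.31% of that of Ppargc1a, 5.87% for Ppargc1b and 7.92% for Ppara. It reached 16% for Esrrg, 18.4% for Esrra, 38.4% for Ppard, 42.2% for Tfam and 73.2% for Nrf1. These shares treat each read as an independent molecule, although the libraries were amplified by PCR. For Nrf1 the spread between mice was therefore mostly at the limit set by depth.

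**Figure D1:**
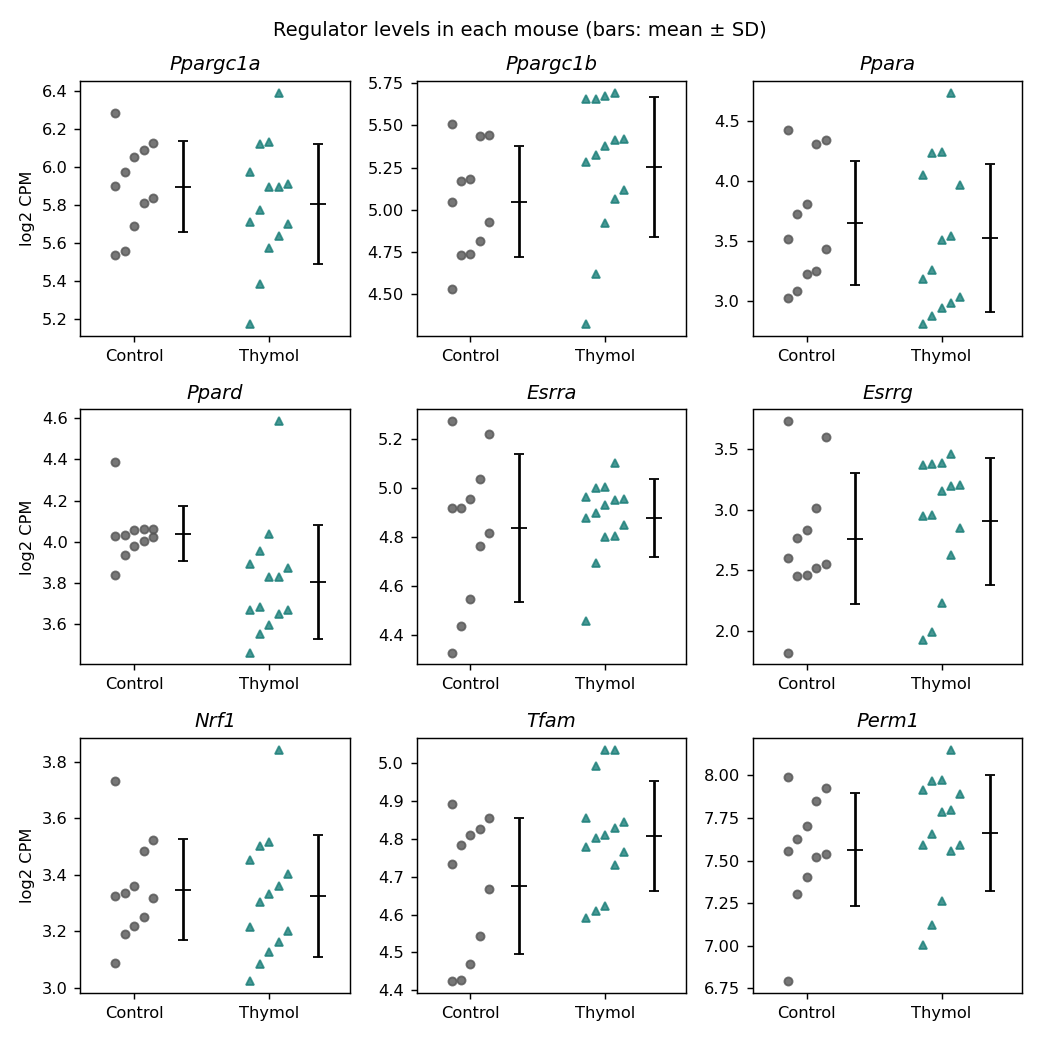
Level of each of the 9 regulators in log2 CPM (vertical axes, a separate range per gene) in every control mouse (circles, n = 11) and thymol mouse (triangles, n = 14), with bars for the mean ± SD. The groups overlap for every gene, and 12 of 14 thymol mice lie below the control median for Ppard.

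The comparison of thymol with control asked whether treatment changed the expression of these regulators. No gene of the table was called (limma, 0 of 8829 at an adjusted p under 0.05, 0% called, smallest adjusted p = 0.741), and the regulators had the same adjusted p of 0.9999 by limma. At an unadjusted p under 0.05, 312 genes were found, 162 higher (1.83%) and 150 lower (1.7%). Among the 9 regulators 1 was lower at that level, Ppard, and none was higher. The values of all 9 overlapped between the groups. In whole muscle, fewer cells of a type and less RNA per cell cannot be told apart.

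Both coactivators moved by less than the spread between mice. Ppargc1a, the coactivator induced by exercise and cold, had a median of 5.90 log2 CPM in control mice (lowest 5.54, highest 6.28) and 5.84 in thymol mice (5.17 to 6.39). The lowest and the highest values of all belonged to thymol mice, and the log2 fold change was -0.09 (SE 0.11, limma unadjusted p = 0.399). Ppargc1b ranged from 4.53 to 5.51 around a median of 5.05 in control mice and from 4.32 to 5.69 around 5.35 in thymol mice. Although 11 of 14 thymol mice were above the control median, the thymol mouse Thymol 6 was the lowest of all, and the log2 fold change of 0.21 (SE 0.14) had an unadjusted p of 0.151 by limma.

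Of the PPAR receptors, Ppard, the most widely expressed PPAR in muscle, had the smallest p among the regulators. Its values ran from 3.84 to 4.39 log2 CPM in control mice (median 4.03) and from 3.46 to 4.59 in thymol mice (median 3.76). Of the 14 thymol mice 12 lay below the control median, whereas Thymol 34 was at 4.04 and Thymol 7 had the highest value of the 25. The log2 fold change was -0.23 (SE 0.095, 95% interval -0.43 to -0.04, limma unadjusted p = 0.0214, rank 129 of 8829 genes). Ppara, the receptor best known from fatty acid oxidation in liver and muscle, was the most variable regulator, with 3.03 to 4.43 in control mice (median 3.52) and 2.81 to 4.74 in thymol mice (median 3.39). Its log2 fold change of -0.12 (SE 0.21) had a 95% interval from -0.55 to 0.31.

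Neither estrogen-related receptor reached an unadjusted p of 0.05. Esrra had medians of 4.92 log2 CPM in both groups, with 4.33 to 5.27 in control mice and 4.45 to 5.10 in thymol mice. The thymol range lay within that of the control mice, and the difference was 0.04 (SE 0.093, limma unadjusted p = 0.670). Esrrg, the receptor enriched in slow and oxidative fibres, ranged from 1.82 to 3.73 in control mice (median 2.60) and from 1.92 to 3.46 in thymol mice (median 3.05). Here 11 of 14 thymol mice exceeded the control median, but 3 thymol mice were near the lower end, and the difference of 0.15 (SE 0.20) had an interval from -0.26 to 0.55. This difference was 0.05 without Control 18, 0.24 without Control 14 and 0.08 by voom.

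None of the contrasts of Nrf1, Tfam and Perm1 reached an unadjusted p of 0.05. Nrf1 differed by -0.02 (SE 0.093, 95% interval -0.21 to 0.17), with medians of 3.32 in both groups. Tfam had a median of 4.73 in control mice (4.42 to 4.89) and 4.81 in thymol mice (4.59 to 5.04), and its log2 fold change of 0.13 (SE 0.071) had an interval from -0.01 to 0.28 and a limma unadjusted p of 0.0760. Control mice formed the 4 lowest values of Tfam, and 3 thymol mice the highest. Perm1 had medians of 7.56 and 7.72, ranges of 6.79 to 7.99 and 7.0 to 8.15, and a difference of 0.10 (SE 0.12, limma unadjusted p = 0.433). Without 1 mouse, the difference of Perm1 ranged from 0.02 (without Control 19) to 0.15 (without Thymol 28), that of Ppargc1a from -0.14 (without Thymol 6) to -0.04 (without Thymol 20) and that of Ppara from -0.22 (without Thymol 6) to -0.05 (without Control 1).

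**Figure D2:**
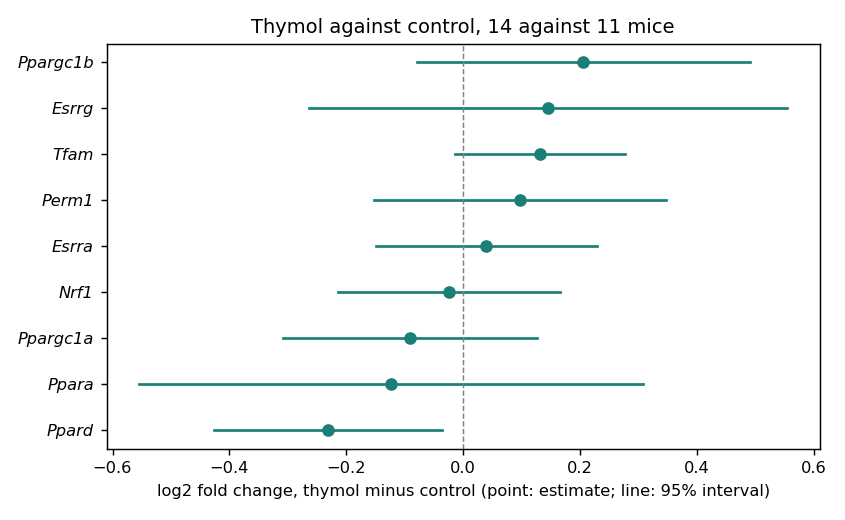
Log2 fold change of each regulator, thymol minus control (horizontal axis), from limma over 25 mice, with 95% intervals as lines. The interval excludes 0 only for Ppard, at -0.43 to -0.04 before adjustment for 8829 genes.

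The other genes of the pathway were described by lists. Of 40 partner factors in the table (coactivators, corepressors, kinases and transcription factors that act with the regulators), 17 were higher and 23 lower with thymol, with a median log2 fold change of -0.03 against -0.00139 for all genes. None was called, and 1 higher and 2 lower had an unadjusted p under 0.05 by limma (7.5%, against 3.53% of all genes). These were Fnip1, a folliculin partner (0.17, SE 0.081), Crtc2, a CREB coactivator (-0.30, SE 0.14), and Nrip1, a corepressor of the PPAR and estrogen-related receptors also known as RIP140 (-0.21, SE 0.087). Gabpa, the DNA-binding subunit of NRF-2, had 0.15 (SE 0.13) and Hdac4, a class II deacetylase, 0.11 (SE 0.094), and Mef2d, a muscle transcription factor, had -0.08 (SE 0.047). The thymol values are log2 fold changes throughout.

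Genes that maintain and transcribe mitochondrial DNA comprised 18 measured genes, 11 higher and 7 lower. Mterf2, a mitochondrial transcription factor family member, was the 1 gene with an unadjusted p under 0.05 (0.29, SE 0.13, limma p = 0.0369, adjusted p = 0.9999). This is 5.56% of the list, against 3.53% of all genes at that level. Tfb2m, which opens the mitochondrial promoter with TFAM, had 0.23 (SE 0.16) and Tefm, the elongation factor, 0.17 (SE 0.16). The RNA helicase Supv3l1 had -0.10 (SE 0.12), the single-stranded DNA-binding protein Ssbp1 -0.06 (SE 0.13) and Mterf4 -0.05 (SE 0.15).

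Targets of the PPAR and estrogen-related receptors were 33 measured genes, of which 25 were higher and 8 lower. The share higher was 75.8%, against 49.6% of all genes. None had an unadjusted p under 0.05 by limma, and the median log2 fold change was 0.03. Over mice, 12 of the 33 rose with a score of nuclear respiratory chain genes (described below), so they are not independent. The fatty acid oxidation enzymes Acadvl (0.13, SE 0.077) and Hadha (0.10, SE 0.078) and the lipid droplet protein Plin2 (0.16, SE 0.14) had the smallest p among those higher. The uncoupling protein Ucp2 (-0.34, SE 0.22), cytochrome c, Cycs (-0.07, SE 0.083), and the angiogenic factor Vegfa (-0.06, SE 0.087) had the smallest p among those lower.

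Of 80 nuclear subunit genes of complexes I to V, 61 were higher and 19 lower with thymol, at a median log2 fold change of 0.04, whereas 49.6% of all genes were higher. The complex I gene Ndufb7 had 0.11 (SE 0.048, limma p = 0.0310, adjusted p = 0.9999). It alone of the subunits passed an unadjusted p of 0.05 (1.25%, against 3.53% of all genes). Ndufb2 (0.12, SE 0.065), Ndufa2 (0.07, SE 0.043), Sdhd (-0.15, SE 0.086), Ndufb1 (-0.07, SE 0.059) and Ndufs5 (-0.13, SE 0.16) did not. These genes vary together over mice and are not independent, and the mean over the 80 genes differed by 0.0361 log2 between groups (permutation p = 0.446, 14 against 11 mice). Of the 7 measured mRNAs of the mitochondrial genome, 3 were higher and 4 lower, from -0.11 for mt-Nd6 to 0.04 for mt-Nd5.

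Each regulator was next set against the respiratory chain over the 25 mice. A nuclear chain score was formed for each mouse as the mean, over the 80 nuclear subunit genes, of the log2 CPM minus the gene's mean over mice. A mitochondrial genome score was formed in the same way over the 7 of 13 mitochondrial mRNAs in the table. The nuclear score ran from -0.284 in Control 19 to 0.27 in Control 14, with a range of -0.204 to 0.152 in thymol mice. The mitochondrial genome score ran from -0.315 in Thymol 28 to 0.241 in Thymol 24. The spread of the nuclear score was small, with an SD of 0.114, and the regulators and scores come from the same libraries and share their scaling.

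Perm1 had the highest r of the regulators with both the nuclear and the mitochondrial genome score, whereas Esrrg had a higher r with complex IV (0.664 against 0.615). In a limma fit of every gene on treatment and score, Perm1 rose by 1.93 log2 per log2 unit of the nuclear score (SE 0.43, adjusted p = 0.0167) and by 1.5 per unit of the mitochondrial genome score (SE 0.26, adjusted p = 0.0133, rank 2 of 8822 genes). It was the only one of the 9 regulators called in either fit. Against the nuclear score 87 of 8749 genes had a called positive slope (0.994%) and 21 a negative slope (0.24%), and against the mitochondrial genome score 27 of 8822 had a positive slope (0.306%) and 0 a negative slope (0%), with 690 genes at an unadjusted p under 0.05 in the latter fit. Both calls of Perm1 were lost without Control 19 (adjusted p = 0.125 and 0.119) and without Thymol 28 (0.0955 and 0.0809), and the nuclear call also without Control 14 (0.0506) and after quantile normalization (0.0526). In these mice Perm1 was 6.79 log2 CPM in Control 19, 7.0 in Thymol 28 and 7.99 in Control 14, the lowest control mouse, the lowest thymol mouse and the highest control mouse. The slope was positive in every fit that left out 1 mouse, from 1.59 to 2.13 for the nuclear score and from 1.31 to 1.62 for the mitochondrial genome score.

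As a correlation, Perm1 had r = 0.667 with the nuclear score (permutation p adjusted over 63 regulator and score pairs = 0.00479) and 0.735 with the mitochondrial genome score (adjusted permutation p = 0.00273). Spearman's rho was 0.503 (adjusted permutation p = 0.0865) and 0.668 (0.0103). Without the 2 mice farthest from the median score, which were Control 19 and Control 14 for the nuclear score and Thymol 28 and Control 19 for the mitochondrial genome score, r was 0.505 and 0.605 (unadjusted permutation p = 0.0138 and 0.00219). With adjustment over the pairs these no longer passed (0.124 and 0.0699), so at this threshold both calls of r depended on these mice. Within each group r with the nuclear score was 0.708 in control and 0.623 in thymol mice, and with the mitochondrial genome score 0.889 and 0.648.

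Esrrg and Esrra also had positive slopes on the nuclear score, with weaker statistics. The slope of Esrrg was 2.47 (SE 0.79, limma unadjusted p = 0.00413, adjusted p = 0.140) and that of Esrra 1.09 (SE 0.37, unadjusted p = 0.00669, adjusted p = 0.174), so neither was called among all genes. In that fit 13.7% of the 8749 genes had an unadjusted p under 0.05, and Esrrg and Esrra ranked 257 and 334. Their r of 0.545 and 0.539 passed the adjustment over 63 pairs (permutation p = 0.0253 and 0.0303), and their rho of 0.490 and 0.457 did not (0.0972 and 0.104). Without Control 19 and Control 14 the r of Esrrg was 0.476 and that of Esrra 0.435 (adjusted permutation p = 0.135 and 0.169). At this threshold both calls of r therefore depended on those mice. Esrra was at 4.33 log2 CPM in Control 19, its lowest value, and Esrrg at 3.73 in Control 14, its highest. Leaving out Control 19 or Thymol 28 alone ended the adjusted call of Esrra (0.217 and 0.117), and leaving out Control 14, Thymol 21 or Thymol 28 ended that of Esrrg (0.0891, 0.0791 and 0.0687).

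The remaining regulators had no relation that passed adjustment with all mice and the values as deposited. Ppargc1a had r = 0.259 with the nuclear score and 0.449 with the mitochondrial genome score (adjusted permutation p = 0.0845 for the latter), and Ppara had 0.284 and 0.396. With the mitochondrial genome score, Ppargc1a passed without Thymol 6 (r = 0.561, adjusted permutation p = 0.0214), and Ppara passed without Thymol 6 (adjusted permutation p = 0.0444) and after quantile normalization (0.0461). Ppargc1b had 0.253 and 0.132. Tfam, which acts directly on mitochondrial DNA, had r = -0.140 with the mitochondrial genome score and 0.0594 with the nuclear score. Nrf1, whose counting error was the largest share of its variance, had -0.207 and -0.0393.

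**Figure D3:**
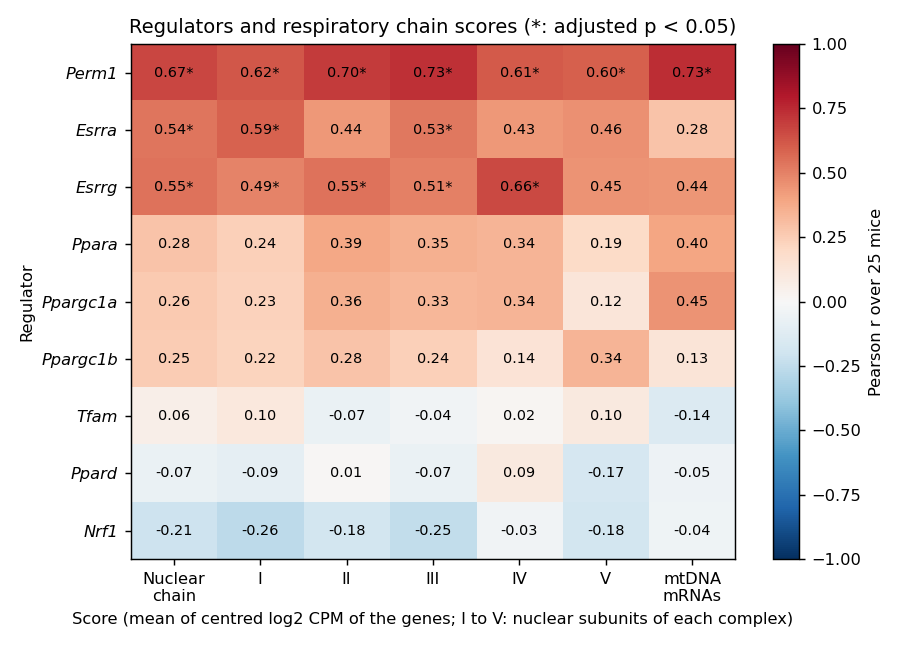
Pearson r over 25 mice between each regulator (rows) and the score of the nuclear subunits, of each complex I to V and of the mitochondrial mRNAs (columns), with colour from blue (negative) to red (positive) and a star at an adjusted permutation p under 0.05. Stars occur for Perm1 with all 7 scores, for Esrrg with 5 and for Esrra with 3.

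Across the 7 scores, 15 of the 63 pairs passed an adjusted permutation p of 0.05, and all 15 r were positive. The nuclear score is formed from the genes of complexes I to V, so the 7 scores are not independent. The share of all genes that would pass this test against each score was not tested. Perm1 passed with every score, from 0.596 with complex V to 0.735 with the mitochondrial mRNAs. Esrrg passed with 5 scores and was highest with complex IV, cytochrome c oxidase (r = 0.664, rho = 0.680, adjusted permutation p = 0.00409 and 0.0103). Esrra passed with 3 scores and was highest with complex I (r = 0.587, adjusted permutation p = 0.0149). By rank, 3 pairs passed, which were Perm1 with complex II and with the mitochondrial mRNAs and Esrrg with complex IV. When the 2 mice farthest from the median of each score were left out, 0 of 63 passed. When 1 mouse was left out, 9 passed without Control 19 and 6 without Thymol 28.

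**Figure D4:**
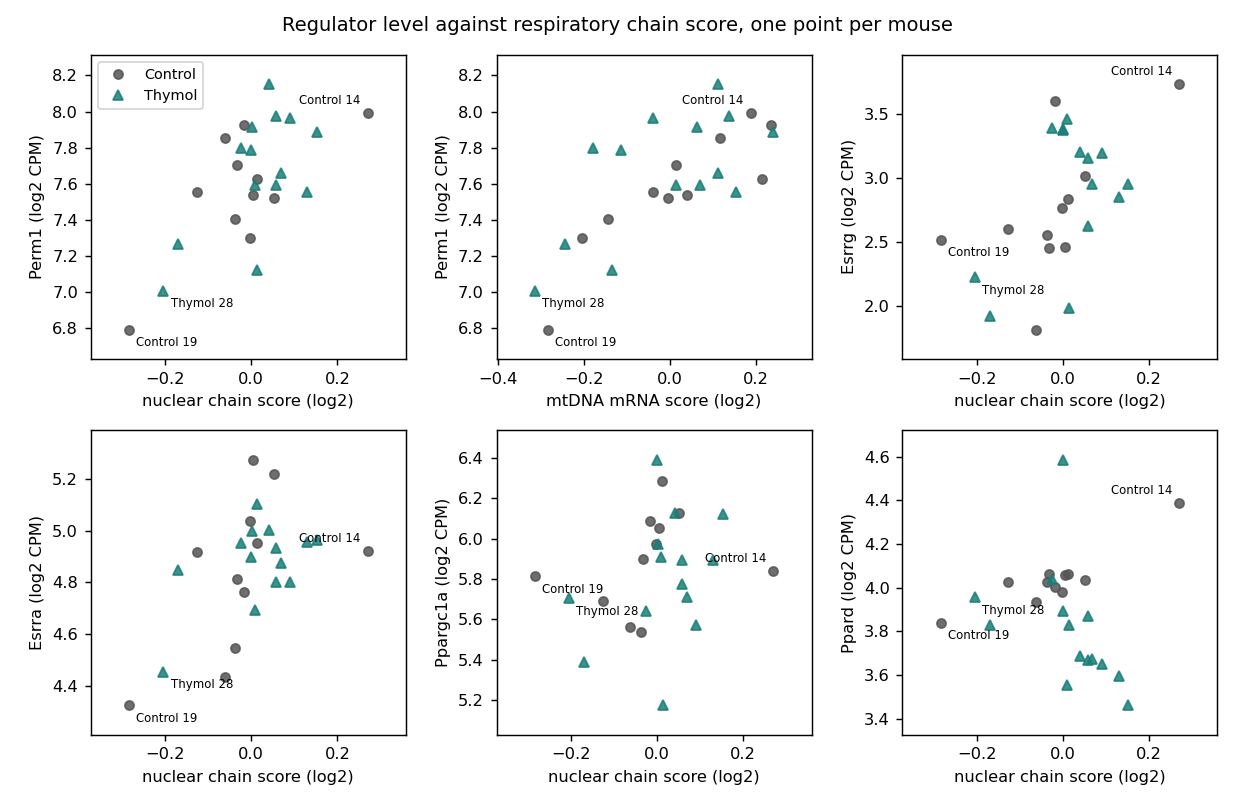
Level of 5 regulators in log2 CPM (vertical axes) against the nuclear chain score or, in the upper middle panel, the mitochondrial genome (mtDNA mRNA) score in log2 units (horizontal axes), 1 point per mouse, circles for control and triangles for thymol. Control 14 has the highest nuclear score at 0.27 and Control 19 the lowest at -0.284, and both are named with Thymol 28.

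Single subunits showed which genes lay behind the scores. Of 783 pairs of a regulator with a nuclear subunit or mitochondrial mRNA, 57 passed an adjusted permutation p of 0.05, all with a positive r, and 14 passed by rank. Perm1 took part in 36 of them, 32 nuclear and 4 mitochondrial, Esrrg in 11, Esrra in 9 and Ppara in 1. The nuclear median r was 0.508 for Perm1, 0.413 for Esrra and 0.406 for Esrrg, whereas the median over all 8828 other genes was -0.0202, -0.00368 and -0.0078. Positive r were found for 75, 75 and 76 of the 80 subunits, against 47%, 49.5% and 48.8% of all other genes. The 95th percentile of r over those genes was 0.44, 0.437 and 0.416. The subunits vary together over mice, so the pairs are not independent. How many of all genes would pass against each regulator was not tested.

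For Perm1 the highest r were with Cyc1, cytochrome c1 of complex III (0.754, adjusted permutation p = 0.00783), and Cox6c of complex IV (0.737). The lowest were with Ndufs5 and Atp5mg, both at -0.238. Esrra was highest with Atp5pf (0.652) and Atp5f1a (0.636) of ATP synthase, and lowest with Atp5mg (-0.443) and Cox6a1 (-0.173). Esrrg was highest with the ATP synthase ring subunit Atp5mc3 (0.655) and with mt-Nd5 (0.646), and lowest with Atp5mg (-0.343) and Ndufc1 (-0.243). Atp5mc3 is the gene whose promoter stretch with an estrogen-related receptor motif is printed above. Sdhd, the other chain gene with that motif, was not among the 2 highest subunits of Esrrg or Esrra. Whether the motif has a part in these r was not tested. Atp5mg was among the 2 lowest subunits of Ppargc1a (-0.312), Ppara (-0.357) and Ppard (-0.515) as well. Atp5mg and Ndufs5 had few reads, 21 to 151 and 18 to 91 per mouse. Among control mice Atp5mg was highest in Control 19, which had the lowest nuclear score. It was lowest in Control 27, the library with the fewest reads.

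Ppargc1a was highest with mt-Nd5 (0.533) and with Sdha, the flavoprotein of complex II (0.508), and lowest with Atp5mg and Ndufb7 (-0.215). Ppargc1b was highest with the complex I genes Ndufa9 (0.530) and Ndufb11 (0.521), and lowest with Cox6a1 (-0.340) and Cox8a (-0.193). The single pair of Ppara that passed was with Ndufs1 of complex I (0.579, adjusted permutation p = 0.038), and Ndufab1 followed at 0.537. Ppard and Nrf1 shared their 2 highest subunits, Cox8a (0.492 and 0.448) and Cox6a1 (0.490 and 0.415), the ubiquitously expressed forms of subunits that also have muscle forms. Both subunits were highest in Thymol 7 (6.17 and 6.37 log2 CPM), the mouse with the highest Ppard. Among control mice both were highest in Control 19, which also had the highest Nrf1 of the control mice. The lowest subunits were Atp5mg and Ndufb7 (-0.342) for Ppard, and Ndufs1 (-0.459) and Ndufab1 (-0.448) for Nrf1. Tfam was highest with Ndufa7 and Ndufb2, both at 0.415, and lowest with Cox7c (-0.357) and Ndufs1 (-0.293). Apart from Ndufs1 with Ppara, none of the pairs in these sentences passed the adjustment.

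**Figure D5:**
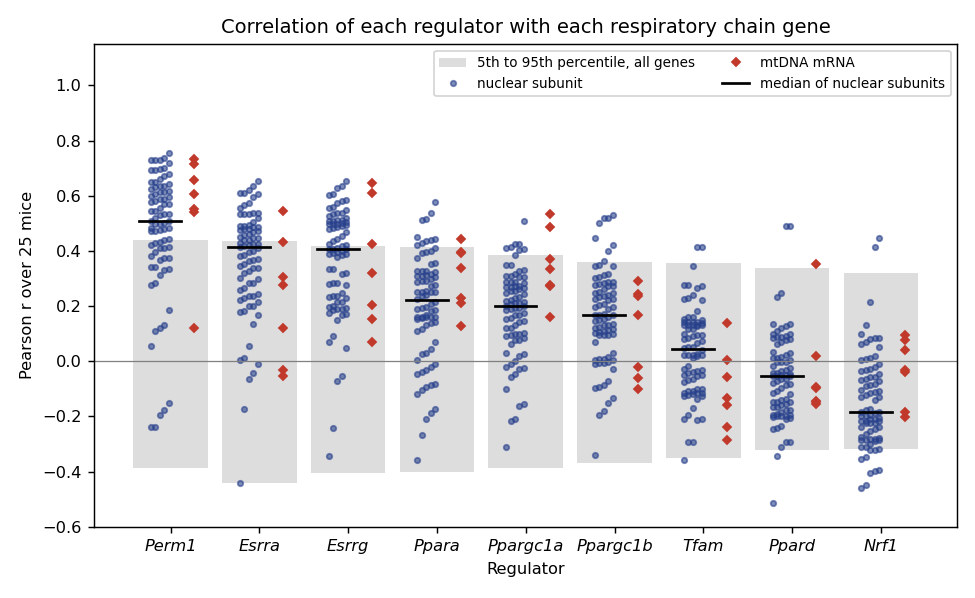
Pearson r over 25 mice (vertical axis) of each regulator (horizontal axis) with 80 nuclear subunit genes (blue points, black line at their median) and 7 mitochondrial mRNAs (red diamonds), over a grey band from the 5th to the 95th percentile of r with all 8828 other genes. The median for Perm1, 0.508, lies above its band, which ends at 0.44, and the median for Nrf1 is -0.185.

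Between the regulators themselves, 3 of 36 pairs passed an adjusted permutation p of 0.05. Ppargc1a and Ppara rose and fell together (r = 0.670, rho = 0.645, adjusted permutation p = 0.00576 and 0.0101). So did Esrrg and Perm1 (r = 0.620, rho = 0.665, adjusted permutation p = 0.0198 and 0.0101). Ppargc1a and Esrrg had r = 0.554 (adjusted permutation p = 0.0490), which fell to 0.366 without the 2 mice farthest from the Ppargc1a median, and rho of 0.482 did not pass (0.140). Its call was lost in 18 of 25 fits without 1 mouse. In the fits without 1 mouse its r ranged from 0.472 to 0.609, so the call depended on most single mice and not only on the 2 farthest. The other 2 pairs had r of 0.614 and 0.744 without the 2 mice farthest from the median of Ppargc1a and of Esrrg. Without Thymol 20, 1 pair was left, since the adjusted permutation p was then 0.0535 for Esrrg with Perm1. The coactivators Ppargc1a and Ppargc1b had r = -0.148, and Nrf1 and Tfam, a factor and its known target, r = 0.357 (adjusted permutation p = 0.378).

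The genes of the table most like each regulator over the 25 mice are given as a description. For Perm1 these were Bdh1, a mitochondrial ketone body enzyme (r = 0.875), myoglobin, Mb (0.863), and the cytosolic malate dehydrogenase Mdh1 (0.845). Esrrg had the muscle cofactor Vgll2 (0.766), the prolyl hydroxylase Egln3 (0.740) and Mb (0.724). Esrra had Srl, a calcium-binding protein of the sarcoplasmic reticulum (0.830), Fam53a (0.761) and the secreted kinase Pkdcc (0.733). Ppara was closest to Ciapin1 (0.795), Mcee of propionate metabolism (0.792) and the glutamine transporter Slc38a3 (0.768). Ppargc1a had Trib2 (0.714), Fbxo34 (0.713) and Ptpn3 (0.684), and Ppargc1b had Pde7a (0.694), Pik3ip1 (0.642) and Cecr2 (0.624). Ppard was closest to the actin-binding protein Cap1 (0.681), the coatomer subunit Arcn1 (0.653) and Tspan14 (0.609). Nrf1 had Ormdl3 (0.682), the haemoglobin gene Hba-a1 (0.626) and Appl1 (0.622), and Tfam had Odf2l (0.726), Ddx49 (0.657) and Bcap29 (0.648).

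In the fit on the nuclear score, 12 of 33 receptor targets had a called positive slope, against 0.994% of all genes, and 0 a called negative slope, with a median slope of 1.02 against -0.04 over all genes. Ckmt2, the mitochondrial creatine kinase (slope 2.58, SE 0.28, limma adjusted p = 4.556e-06), Eci1 of fatty acid oxidation (1.84, SE 0.30) and Fndc5, the precursor of irisin (2.94, SE 0.50), had the highest t. Ucp2 (-0.99, SE 0.98), Ucp3 (-0.58, SE 0.61) and Plin2 (-0.31, SE 0.64) had the lowest, and none of these 3 was called. Of 18 genes of mitochondrial DNA maintenance and transcription 0 were called, and Lrpprc, an RNA-binding protein, had the highest t (0.85, SE 0.36, limma adjusted p = 0.269), followed by Tfb2m (0.92, SE 0.73) and Polg (0.67, SE 0.54). The lowest were Twnk (-0.30, SE 0.66), Ssbp1 (-0.08, SE 0.60) and Elac2 (0.10, SE 0.59). Of 40 partner factors 1 was called, with a negative slope, against 0.24% of all genes. This was the acetyltransferase Crebbp (-0.86, SE 0.22, limma adjusted p = 0.0441). Nrip1 (-0.98, SE 0.35) and Gabpb2 (-1.29, SE 0.48) followed it, and Mef2d (0.42, SE 0.20), Ncoa2 (0.97, SE 0.59) and Ncoa3 (0.65, SE 0.48) had the highest t.

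Whether the relation to the chain differed between thymol and control was tested for 9 regulators and both scores, as 18 differences of r. The difference passed for Ppard with the nuclear score, where r was 0.903 in control mice and -0.428 in thymol mice (difference -1.33, permutation p = 4e-05, adjusted p = 0.00072). The control values of Ppard spanned 3.84 to 4.39 log2 CPM with an SD of 0.133, where counting error alone would give 0.136, and the thymol values had an SD of 0.277, where it would give 0.144. Both ends were the mice with the lowest and the highest nuclear score, Control 19 and Control 14, and without these mice r in the other 9 control mice was 0.292. The other 17 differences did not pass, among them those of Nrf1 with the nuclear score (-0.596 in control and 0.124 in thymol mice, permutation p = 0.128, adjusted p = 0.591) and of Perm1 (difference -0.0849). As a difference of slopes on the nuclear score fitted by limma over all genes, Ppard had -2.11 (SE 0.81, unadjusted p = 0.0143, adjusted p = 0.9991), with 0 of 8749 genes called (0%) and 391 at an unadjusted p under 0.05 (4.47%).

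The label of the tissue was checked against marker genes. All 10 muscle markers were measured, with a summed level of 97404 to 121715 CPM over the mice. Slow-fibre markers, 9 of 10 measured, summed to between 945 and 7938 CPM in control and between 99.4 and 10080 CPM in thymol mice. The 12 fast-fibre markers summed to between 113004 and 157001 CPM over all mice. Adipocyte markers (9 of 10) lay between 2374 and 6477 CPM in control and between 2114 and 5796 in thymol mice, and leukocyte markers (8 of 12, without Ptprc, the common leukocyte antigen, which was not analysed here) between 100 and 475 and between 109 and 335. Endothelial markers spanned 245 to 385 CPM, fibroblast markers 987 to 4143, erythroid markers 257 to 775, nerve markers 72.4 to 268, and the 1 measured brown adipocyte marker of 3 spanned 0.816 to 26 CPM. None of the 10 lists had a permutation p under 0.05 for thymol against control (0.099 to 0.995). Over mice, Esrrg and Perm1 had r of 0.626 and 0.602 with the muscle markers, and Ppargc1a and Esrrg -0.579 and -0.589 with the leukocyte markers, each at an adjusted permutation p of 0.0609 over 99 pairs. Without the 2 mice farthest from the median of each marker list, these r were 0.603 and 0.441, and -0.419 and -0.365. The muscle markers include Mb, itself among the genes most like Perm1 (r = 0.863) and Esrrg (0.724). The nuclear score had r = 0.443 with the muscle and -0.433 with the leukocyte markers, the mitochondrial genome score had 0.503 with the muscle markers, and Esrra had -0.474 with the leukocyte markers (adjusted permutation p = 0.186, 0.195, 0.156 and 0.179). Perm1 also had r = 0.5 with the slow-fibre markers (adjusted permutation p = 0.156). With the slow-fibre markers as a covariate, the slope of Perm1 was 1.75 on the nuclear and 1.39 on the mitochondrial genome score (limma adjusted p = 0.00859 and 0.00179). The part of the muscle and leukocyte markers in the other correlations was not tested.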

How the data were processed

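Libraries were made from total RNA of gastrocnemius with a QuantSeq 3′ kit. The authors mapped reads to GRCm38 with STAR 2.5.3, counted them with HTSeq 0.6.1, filtered low genes, applied TMM scaling and deposited log2 CPM for 8829 gene symbols in 25 mice. Counting by strand was not given in the sources used here. Whole reads were recovered from the steps of these values (100% within 0.01 read) for depth, counting error and a voom alternative. The study tested read counts, whereas here the deposited log2 values were tested with limma 3.58.1 in R 4.3.3 (trend, two-sided, Benjamini-Hochberg over all genes, threshold 0.05), for treatment and for each gene on treatment and a chain score. Correlations over mice used two-sided tests of 100000 permutations, for which the smallest possible p is 1e-05, with Benjamini-Hochberg adjustment within each family. Python 3.11.15, NumPy 2.4.6, pandas 2.3.3 and SciPy 1.17.1 were used, and figures were drawn with matplotlib 3.10.9. The fits were tested on simulated data.

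The regulators and gene lists were chosen with earlier results of these data known. Named genes were every regulator, its 3 most similar genes, its 2 highest and 2 lowest subunits, and in each list the 3 higher and 3 lower genes of smallest p or the 3 highest and 3 lowest t on the nuclear score. Names given beyond the rule (subunits common to several regulators, single pairs) were chosen after their values were seen. Mice were grouped by their labels, and all 25 value columns matched a mouse. Promoter windows, from RefSeq (GRCm38.p6), were matched for 9 of 10 regulators and 65 of 80 chain genes. Alternatives were other scalings, sample weights, robust moderation, voom, a filter to the 75% of genes with the highest mean, covariates (library order, depth, markers), a block for the first label number and each mouse left out in turn. Covariates from adipocyte markers, slow-fibre markers in the treatment fit, all alternatives of the difference of correlations, and the interaction fit were chosen after seeing the data. P-values describe the spread between mice. Protein sequences were not used here.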

Additional observations from a re-analysis of the deposited data

Results flagged for a closer look

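The relation of Ppard to the nuclear chain score differed between the groups, with r = 0.903 in 11 control mice and -0.428 in 14 thymol mice, a difference of -1.33 (permutation of group labels, p = 4e-05, adjusted p = 0.00072 over 18 differences). It passed in each of the 25 fits without 1 mouse (difference from -1.57 without Thymol 7 to -1.22 without Control 14, highest adjusted permutation p = 0.0248) and by rank (difference -1.32, adjusted permutation p = 0.00486). It did not pass without both Control 14 and Control 19 (difference -0.72, adjusted permutation p = 0.244) or after quantile normalization (difference -1.15, adjusted permutation p = 0.17). Control 14 had 4.39 log2 CPM of Ppard at a nuclear score of 0.27 and Control 19 had 3.84 at -0.284, whereas the other 9 control mice lay closer together on both axes. In the limma interaction fit the difference of slopes of Ppard had an adjusted p of 0.9991 with all mice, and the slope difference was -1.44 (SE 1.70) without Control 14 and Control 19. The cause of the difference between the groups was not tested.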

How the results depend on the processing

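No gene was called for thymol against control under any of the 10 alternatives or without any of the 25 mice, with 312 genes at an unadjusted p under 0.05. The count of genes called on the nuclear score was 108, and 187 with nuclear genes rescaled to their own total. On the mitochondrial genome score it was 27, and 62 after quantile normalization, 3 with nuclear genes rescaled, 4 with depth as a covariate and 4 with adipocyte markers as a covariate. Without 1 mouse these counts ranged from 55 to 145 and from 1 to 51. Fewer than 72 genes were called on the nuclear score without Control 14 (55), Thymol 28 (60) or Thymol 21 (62), and the mitochondrial genome count moved by over 1.5 times without any 1 of 17 mice and was 1 without Control 19 or Thymol 28. With a replicate block for the first label number, 12 genes were called on the nuclear score and 0 on the mitochondrial genome score (limma, 556 at an unadjusted p under 0.05), and Perm1 had slopes of 2.08 and 1.65 (adjusted p = 0.101 and 0.316). In that fit the thymol difference was -0.402 for Ppard (limma unadjusted p = 0.00369) and 0.393 for Esrrg (0.0605). What that number marks was not given in the sources used here. Deviations from the group mean were compared in control and thymol pairs of mice. Of 9 pairs with the same first number, 1 had a correlation over 0.1 (range -0.179 to 0.104, median 0.0532). Of 145 pairs with different first numbers, 24 had one (median -0.0089). Mice of the same group that share a number were not compared, so these pairs cannot decide what the number marks. Perm1 on the nuclear score had an adjusted p of 0.0526 after quantile normalization. The 15 pairs of regulator and score became 3 by rank, 1 in control mice alone, 0 in thymol mice alone and 0 without the 2 farthest mice, and 6 to 17 without 1 mouse. The 3 regulator pairs became 1 to 4 without 1 mouse. The difference of correlations was called for 1 pair, for 0 after quantile normalization and 0 without Control 14 and Control 19, and for 1 to 2 without 1 mouse.

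Small values changed sign, none of them called. Nrf1 on the mitochondrial genome score had r of 0.0338 by rank, 0.215 in thymol mice, 0.00736 after median centring and 0.0891 without the 2 farthest mice, with slopes of 0.00519 after median centring and 0.00379 with adipocyte markers. Its r with the nuclear score was 0.124 in thymol mice and 0.014 without the 2 farthest mice, and its thymol difference 0.00331 with sample weights. Ppard had r with the nuclear score of 0.903 in control mice, 0.00893 centred within group and 0.0216 after quantile normalization, and with the mitochondrial genome score 0.533 in control mice and 0.102 after quantile normalization. Its slopes were -0.00426 (median centring) and -0.00925 (z-scores) on the nuclear score, and 0.174 (quantile normalization) and 0.0111 (replicate block) on the mitochondrial genome score. Tfam had r with the nuclear score of -0.00204 in control mice, -0.00517 in thymol mice and -0.00342 centred within group, r with the mitochondrial genome score of 0.0235 in thymol mice, slopes on the nuclear score of 0.214 (median centring), 0.00221 (nuclear genes rescaled) and 0.147 (replicate block), and 0.00409 on the mitochondrial genome score (median centring). Ppargc1b had r of -0.121 with the mitochondrial genome score in control mice and Esrra -0.0776 without the 2 farthest mice. Without 1 mouse, the thymol difference ranged from -0.0114 to 0.0835 for Esrra and from -0.0644 to 0.014 for Nrf1. The slope on the nuclear score ranged from -0.521 to 0.0255 for Nrf1, from -0.506 to 0.198 for Ppard and from -0.212 to 0.186 for Tfam, and on the mitochondrial genome score from -0.183 to 0.164 for Nrf1 and from -0.266 to 0.0151 for Ppard. With 1 mouse left out r with the nuclear score ranged from -0.316 to 0.0158 for Nrf1 and from -0.331 to 0.0404 for Ppard, and with the mitochondrial genome score from -0.16 to 0.132 and from -0.167 to 0.0655. As a share of within-group variance, counting error was largest for Nrf1 (73.2%) and Tfam (42.2%), with Ppard at 38.4%. The cause of the changes of sign was not tested.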

Other observations

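In the fit on the nuclear score, all 7 mitochondrial mRNAs had a positive slope, with a median of 1.17, and 3 were called by limma, whereas 46.9% of all genes had a positive slope and 0.994% a called positive slope. In the fit on the mitochondrial genome score, 76 of 80 nuclear subunits had a positive slope, with a median of 0.52, and 7 were called, against 47.3% and 0.306% of all genes. These were Ndufb9 of complex I, Sdha and Sdhb of complex II, Uqcrc2 and Cyc1 of complex III, and Atp5f1b and Atp5mc3 of complex V, which were picked out after their values were seen. In total 16 genes had a called positive slope on both scores, and Perm1 was among them. On the mitochondrial genome score 1 gene in all was called without Control 19 and 1 without Thymol 28, and Perm1 was called in neither fit. Ppargc1a and Ppara had unadjusted p of 0.0187 and 0.0361 on the mitochondrial genome score and Esrrg 0.0165, and none of the 3 passed the adjustment of limma over all genes (adjusted p = 0.482, 0.569 and 0.455).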
